A study of Mus musculus with 60 samples.

Results

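Interferon-stimulated genes were followed gene by gene and cell by cell in dormant and proliferative breast cancer cells taken from mouse bone. The set was given as a list of names and holds 37 member genes of the 47729 mouse genes in the deposited table: transcription factors of the interferon response, sensors of viral RNA, antiviral effectors and genes known mainly for their induction. The cells were PyMT-Bo1, a mouse mammary tumor line that carried luciferase, an mApple nuclear label and the surface marker Thy1.1 in both groups, and they were stained with the membrane dye DiD before intracardiac injection into wild-type C57BL6 mice. Femurs and tibias of 5 mice were pooled, and CD45-negative, Thy1.1-positive cells were sorted 1 per well as DiD+ (labeled High, 32 cells that kept the dye and are termed dormant) or DiD- (labeled Low, 28 cells that had diluted it and are termed proliferative). Because each deposited sample was 1 cell of 1 line and no mouse was named for any cell, each group counted as 1 sample, no test between the groups was run, and the differences below have no replicate check.

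Type I interferons are secreted proteins that bind a shared receptor, IFNAR, on the cell surface. Its kinases activate STAT proteins such as STAT2, which join IRF9 to form a complex that enters the nucleus and binds the interferon-stimulated response element in the promoters of its target genes. The products of these genes sense viral RNA, degrade it or block its translation, and several of them, such as IRF7, RIG-I and STAT2, raise the response further.

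Depth was similar in both groups. The cells held between 2276789 and 7794219 counts on mouse genes, and the median cell held 4653711 in DiD+ and 4440161 in DiD-. For each group the counts of its cells were added up and scaled to a common total over mouse genes, in CPM. Levels of DiD+ were set over those of DiD- as a log2 ratio, with 1 CPM added to both, which pulls low genes toward 0. A gene was called higher or lower when this ratio reached 2-fold, which is 1 on the log2 scale, and a gene was called present in a cell at 10 or more counts. The reads carry no molecular identifiers, so the 95% intervals (exact Poisson for sums, Clopper-Pearson for shares of cells) and the limits where a count was 0 reflect counting error alone.

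Some wells stood apart by the markers of another cell type. In all, 6 DiD+ cells (cells 19, 21, 24, 30, 37 and 88) and 1 DiD- cell (cell 84) held between 124 and 12721 counts of Cd74, the class II invariant chain of antigen-presenting cells, while the other 53 cells held 0. The same 7 cells had 11 to 13 of 13 macrophage or monocyte markers at 10 or more counts, against at most 5 in any other cell. Cell 30 also held 0 counts of each of the 4 transgenes. Among the Cd74 cells, cells 30 and 37 held 174035 and 69786 CPM on erythroid markers. Among the cells without Cd74, the DiD- cell 86 stood apart by 46536 CPM on erythroid markers. Without cell 86 and the Cd74 cells, 24 members were at least 2-fold higher and 0 lower. The part of these markers in the interferon counts was not tested. Results are therefore given with and without these Cd74 cells, which left 26 DiD+ and 27 DiD- cells. Of 6 epithelial markers, Krt8 was present in 60 of 60 cells and Krt18 in 57, whereas Epcam, Cdh1, Krt7 and Cldn4 reached 10 counts in 0 cells.

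Promoter sequence was examined first because the response element can be read without the counts. The members are listed as interferon-stimulated genes, so a share with the element above that of all genes follows in part from the list. RefSeq promoter windows (build GRCm38.p6) matched 27 of the 37 members. The element was searched as GAAANNGAAA, or TTTCNNTTTC on the other strand, within the 250 bases upstream of each start. It was found for 10 of the 27 (Stat2, Isg15, Ifit1, Ifit3, Oas1a, Rsad2, Gbp2, Gbp3, Bst2 and Trim30a), whereas 3.46% of the 27025 genes with a window held it, as did 2.98% of all 32851 windows. Matches overlap each other in some windows, as in Isg15 and Bst2. The 160 bases next to the start follow for 5 members, so that the element can be read beside their values. Their leading DiD+ cells were cell 21 (Ifit1 and Isg15), cell 68 (Ifit3 and Gbp2) and cell 30 (Rsad2). Capitals mark the element. Its nearest match began 85 bases upstream of the start in Ifit1 (chr19:34640729-34640888, plus strand), 122 in Ifit3 (chr19:34583369-34583528, plus), 66 in Isg15 (chr4:156200819-156200978, minus), 59 in Gbp2 (chr3:142620503-142620662, plus) and 120 in Rsad2 (chr12:26456453-26456612, minus).
Ifit1: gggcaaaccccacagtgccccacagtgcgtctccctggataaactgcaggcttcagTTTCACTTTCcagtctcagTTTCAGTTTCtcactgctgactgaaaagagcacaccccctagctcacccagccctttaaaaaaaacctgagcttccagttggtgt
Ifit3: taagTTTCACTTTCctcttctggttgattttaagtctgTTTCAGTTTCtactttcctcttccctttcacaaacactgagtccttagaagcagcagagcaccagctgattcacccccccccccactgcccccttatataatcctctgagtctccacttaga
Isg15: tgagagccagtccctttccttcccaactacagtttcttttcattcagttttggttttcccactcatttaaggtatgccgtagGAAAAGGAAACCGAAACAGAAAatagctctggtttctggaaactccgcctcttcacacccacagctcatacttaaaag
Gbp2: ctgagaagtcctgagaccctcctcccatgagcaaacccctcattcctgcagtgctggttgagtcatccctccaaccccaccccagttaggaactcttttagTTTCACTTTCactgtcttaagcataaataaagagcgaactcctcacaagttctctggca
Rsad2: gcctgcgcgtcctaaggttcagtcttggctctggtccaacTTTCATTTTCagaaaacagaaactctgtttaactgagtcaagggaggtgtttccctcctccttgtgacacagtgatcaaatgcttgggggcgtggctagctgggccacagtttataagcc

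Without the Cd74 cells, 8 of the 10 members with the element were at least 2-fold higher in DiD+ cells, and their log2 ratios had a median of 2.42, and the same held for 8 of the 17 members whose windows lacked it, with a median of 0.95, beside 10.4% of all genes. Leaving out cell 68 as well left 6 of the 10, with a median of 1.45, and 6 of the 17, with a median of 0.81. The interferon-gamma activated site, searched as TTCNNNGAA, which reads the same on both strands, was found for 7 of the 27 members, beside 8.13% of all genes. These members, Irf1, Ifit2, Oas1a, Isg20, Eif2ak2, Samhd1 and Bst2, had a median log2 ratio of 0.73 without the Cd74 cells, with 3 of the 7 at least 2-fold higher, and of 0.25 without cell 68 as well, with 1 of the 7 at least 2-fold higher. A match in these letters is a description and not a measured binding site.

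Across all 60 cells the interferon genes were mostly higher in the DiD+ sum. Of the 37 members, 29 were at least 2-fold higher in DiD+ cells, 0 were at least 2-fold lower and 8 lay between. The median log2 ratio was 1.72. Of the 12432 genes that reached 1 CPM in either group, 12.1% were at least 2-fold higher and 4.86% at least 2-fold lower, and the median was 0.04. Of the 37, 7 reached 1 CPM in DiD+ cells alone (Ifit3, Oas2, Zbp1, Mx1, Mx2, Ifi44 and Trim30a). The share of all genes that did so was not computed.

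When the Cd74 cells were left out, 24 of the 37 members remained at least 2-fold higher, 1 (Rsad2) was at least 2-fold lower and 12 lay between. The background was 10.4% higher and 5.71% lower among 12153 genes. The median log2 ratio was 1.45 over the 37 members and 1.48 over the 35 that reached 1 CPM in either group, beside 0.05 over all genes. Scaling to the spike-ins lowered the median of all genes to -0.24 and left 14 members at least 2-fold higher, or 21 relative to that shift, with a median of 0.84. Members with 0 counts in DiD- cells already lay above the medians of 1.72 and 1.48. Placing them at the bound that a limit of 3 counts allows therefore could not move these medians. The same holds for Rsad2, with 0 counts in DiD+ cells without Cd74, which lay below. By role, the median ratio without the Cd74 cells was 3.24 for the 3 IFIT genes, 2.27 for the 2 genes of the ISG15 system, 2.13 for the 3 genes of the PARP and DTX3L group, 2.02 for the 4 transcription factors and 2.01 for the 6 other induced genes. It was 1.62 for the 4 GTPases, 1.13 for the 4 RNA sensors, 0.95 for the 3 OAS genes, 0.67 for the 2 membrane proteins and 0.26 for the 6 effectors on RNA and nucleotides. The member genes without a 2-fold difference were Irf9, Ifih1, Ifit2, Oas2, Oasl2, Isg20, Eif2ak2, Cmpk2, Mx1, Bst2, Ifitm3 and Ifi35.

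**Figure D1:**
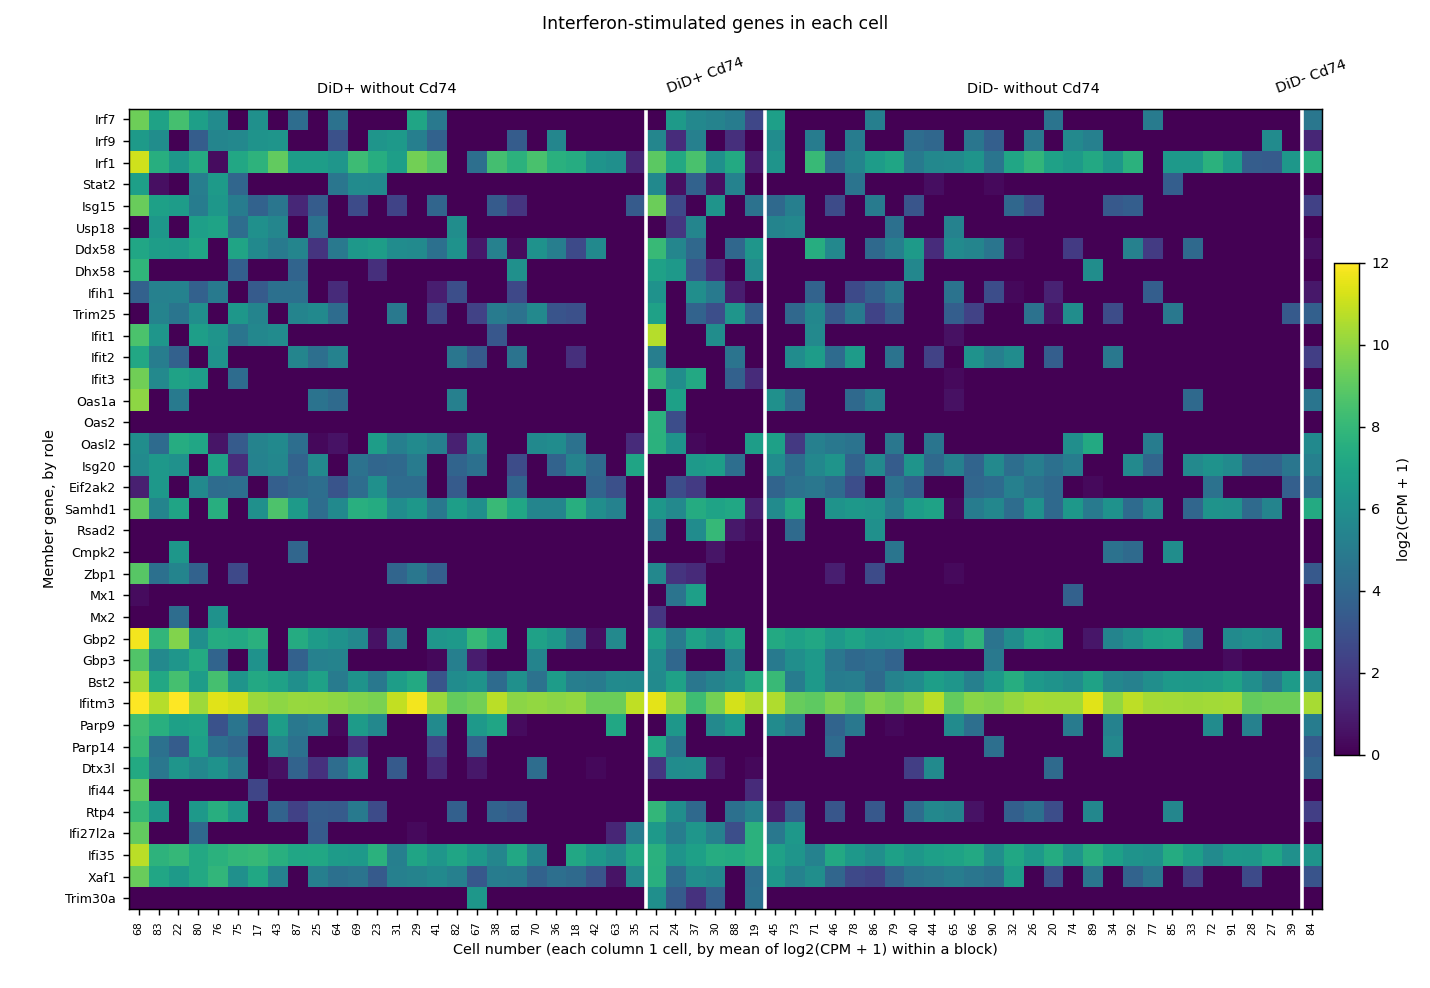
Level of each of the 37 members (rows, by role) in each of the 60 cells (columns) as log2(CPM + 1), in 4 blocks by DiD group and Cd74, with cells ordered within a block by their mean over the members and the colour scale ending at 12. Cell 68 heads the DiD+ block with 28 members present, Ifitm3 is bright in every cell, and most other rows are dark in most cells of both groups.

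The heat map of the members in each cell shows that most of them were intermittent. Among the cells without Cd74, the median cell stood at 0 for 19 of the 37 members in DiD+ and for 26 in DiD-. It was higher in DiD+ for 16 members, lower for 2 and at 0 in both groups for 19, while over all genes 33.8% were higher and 37.7% lower. Even so, at least 1 DiD+ cell lay above every DiD- cell for 33 members and at least 3 did so for 21, beside 59.9% and 18.3% of all genes. The groups overlapped for every member, since the lowest cells of both lay within the same range.

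Among the transcription factors, Irf7, Irf1 and Stat2 were higher in DiD+ cells. Irf7 (chromosome 7), the factor that amplifies interferon production, lay between 0 and 661 CPM in DiD+ cells and between 0 and 108 CPM in DiD- cells, with a median of 0 in both. Summed, it was at 53.8 CPM (52.6 to 55.0) in the DiD+ group against 7.83 CPM (7.34 to 8.35) in the DiD- group, and its log2 ratio was 2.63. Leaving out the Cd74 cells made this ratio 2.82, and it was 2.24 without cell 68 as well. Irf7 was present in 10 of 26 such DiD+ cells (38.5%, 20.2 to 59.4) and in 4 of 27 DiD- cells (14.8%, 4.19 to 33.7), and 5 DiD+ cells lay above every DiD- cell.

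Stat2, the partner of IRF9, was sparse, with a log2 ratio above that of Irf7 with all cells and below it without the Cd74 cells. It ranged from 0 to 109 CPM in DiD+ cells and from 0 to 23.4 CPM in DiD- cells, and the sums were 12.9 and 1.13 CPM (log2 ratio 2.71, and 2.60 without the Cd74 cells). Irf1, a factor that interferon-gamma also induces, was widespread instead. It was present in 28 of 32 DiD+ and 26 of 28 DiD- cells, whose medians were 159 and 83.5 CPM and a highest cell of 2263 CPM, cell 68, against 272 CPM among DiD- cells. Its log2 ratio of 1.35 became 1.44 without the Cd74 cells and 1.00 without cell 68 as well. Irf9, which gives the complex its DNA binding, had a ratio of 0.65 and of 0.74 without the Cd74 cells, and was present in 14 of 26 DiD+ and 11 of 27 DiD- cells.

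The ISG15 system was represented by the ubiquitin-like modifier Isg15 and by Usp18, the protease that removes it and also restrains the receptor. Isg15 (chromosome 4) lay between 0 and 631 CPM in DiD+ cells, with a median of 5.49 CPM, and between 0 and 35.7 CPM in DiD- cells, with a median of 0. Its sums were 53.1 CPM (51.9 to 54.3) against 4.75 CPM (4.37 to 5.16), which gave a log2 ratio of 3.23. Most of those DiD+ counts lay in a pair of cells, since cell 21 held 38.1% of them and cell 68 held 28.8%. The ratio was 2.71 without the Cd74 cells and 1.73 without cell 68 as well. Usp18 differed in this respect, because cell 68 held 0 of its counts. Its ratio of 1.67 became 1.82 without the Cd74 cells and 1.87 without cell 68, and its highest holder, cell 82, had 17.7% of the DiD+ counts.

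Among the RNA sensors, Ddx58, which encodes RIG-I, was the most evenly spread. It was present in 21 of 26 DiD+ cells without Cd74 (80.8%, 60.6 to 93.4) and in 12 of 27 DiD- cells (44.4%, 25.5 to 64.7), with median cells of 47.3 and 0.38 CPM. Its sums over all cells were 54.5 and 19.2 CPM, and its log2 ratio was 1.46, or 1.32 without the Cd74 cells and 1.24 without cell 68. No DiD+ cell without Cd74 lay above the highest DiD- cell, cell 71 at 175 CPM. The next DiD- cell, cell 40, stood at 91.97 CPM, and DiD+ cells 22, 23, 68, 75, 80 and 83 lay above cell 40. The groups therefore differed in the number of cells, while the comparison of their peaks rested on cell 71. Trim25, the ubiquitin ligase that acts on RIG-I, had ratios of 1.24, 1.04 and 1.08 in the same 3 sets, with 0 counts in cell 68. Ifih1, which encodes MDA5, was at 1.37 with all cells but 0.84 without the Cd74 cells, which held 45.8% of its DiD+ counts. Dhx58, which encodes the regulatory helicase LGP2, fell from 1.95 to 1.22 without the Cd74 cells and to -0.26 without cell 68 as well.

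The IFIT genes, whose products bind foreign RNA and stop its translation, held the highest log2 ratios of the set with all cells (Ifit3 and Ifit1) and also a member, Ifit2, below 0. Without the Cd74 cells Ifi44 and Zbp1 lay above Ifit1. Ifit3 (chromosome 19) was present in 10 of 32 DiD+ and 0 of 28 DiD- cells, ranging up to 680 CPM in DiD+ cells and 0.24 CPM in DiD- cells, where it had 1 count in all. Its sums were 41.6 CPM (40.6 to 42.7) and 0.00837 CPM, and its log2 ratio was 5.40. Among the cells without Cd74 it was present in 5 of 26 DiD+ cells, with a log2 ratio of 5.08 and a fold of 3880 whose counting interval ran from 696 to 153272. Cell 68 held 64.5% of those counts, and the ratio without it was 3.71.

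Ifit1 was likewise found in few cells, with a different leading cell. It ranged from 0 to 1643 CPM in DiD+ cells and from 0 to 49.7 CPM in DiD- cells, where 1 cell (cell 71) held 99.1% of 218 counts. Cell 21, a Cd74 cell, held 69.8% of its DiD+ counts, and the log2 ratio went from 4.76 to 3.24 without the Cd74 cells and 2.41 without cell 68 as well. Ifit2 stood at 13.8 CPM in the DiD+ sum and 18.2 CPM in the DiD- sum, with ratios of -0.38, -0.29 and -0.73 in the same 3 sets. It was present in 11 of 26 DiD+ and 11 of 27 DiD- cells without Cd74, so the 3 neighboring IFIT genes of chromosome 19 did not move as a unit between the groups.

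**Figure D2:**
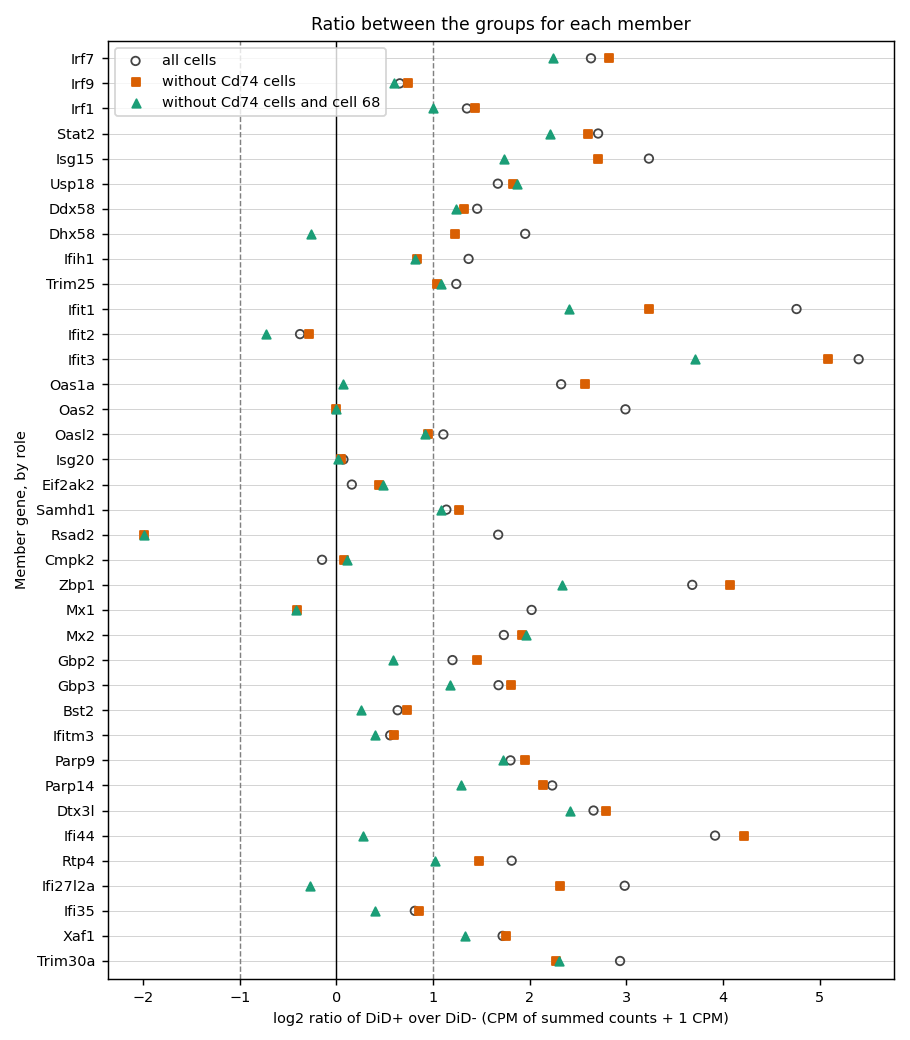
Log2 ratio of DiD+ over DiD- for each member (rows), from CPM of summed counts plus 1 CPM, with all cells (open circles), without the Cd74 cells (squares) and without the Cd74 cells and cell 68 (triangles). Oas2, Rsad2 and Mx1 leave the right side when the Cd74 cells are left out, and Dhx58, Oas1a, Ifi44 and Ifi27l2a move to near 0 when cell 68 is left out as well.

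The OAS genes, which make the small molecule that switches on RNase L, were held mostly by single cells for Oas1a and Oas2 but not for Oasl2. Oas2 was at least 276-fold higher in DiD+ cells, with 1014 counts there and 0 in DiD- cells, but cell 21 held 97.0% of them and cell 24 the rest, and without the Cd74 cells it had 0 counts in both groups. Oas1a stood at 33.6 CPM in the DiD+ sum and 5.90 CPM in the other, with a log2 ratio of 2.32. Cell 68 held 75.8% of its DiD+ counts, and the ratio of 2.57 without the Cd74 cells became 0.07 without that cell. It was present in 5 of 26 DiD+ and 5 of 27 DiD- cells. Oasl2, another gene of that family, was spread over 16 of 26 and 9 of 27 cells with a ratio of 0.95.

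Effectors on RNA and nucleotides moved in different ways. Zbp1, the sensor of Z-form nucleic acids that can trigger cell death, ranged from 0 to 472 CPM in DiD+ and from 0 to 9.09 CPM in DiD- cells. Its sums were 17.7 and 0.46 CPM, with a ratio of 3.68 (4.07 without the Cd74 cells, 2.33 without cell 68 as well). Cell 68 held 67.3% of its DiD+ counts, yet it was present in 8 of 26 DiD+ cells without Cd74 and in 1 of 27 DiD- cells. Samhd1, which degrades the building blocks of DNA, was present in 23 of 26 and 23 of 27 cells, with medians of 63.8 and 46.6 CPM and a ratio of 1.27.

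Rsad2, which encodes viperin, changed direction between the sets of cells. All of its 1676 DiD+ counts lay in Cd74 cells, with 76.7% in cell 30, the cell without transgene counts. Over all cells its log2 ratio was 1.67. With those cells left out its count in the 26 DiD+ cells was 0, at least 116-fold lower than the 2.98 CPM of the DiD- sum, which came from 2 cells of which cell 86 held 85.3%. Cell 30 had all 6 erythroid markers present, and cell 86 had 5 of the 6. Without cell 86 as well, the ratio was -0.54 and 0 members were at least 2-fold lower. Cmpk2, its neighbor on chromosome 12 and a nucleotide kinase, was at 3.69 and 4.20 CPM, and cell 22 held 88.7% of its DiD+ counts. Isg20, an exonuclease, and Eif2ak2, which encodes PKR, had ratios of 0.05 and 0.44 without the Cd74 cells. Isg20 changed sign with spike-in scaling (-0.67), mean CPM (-0.04) and the BASiCS values (-0.18), and Cmpk2, at 0.08, did so with mean CPM (-0.24) and the BASiCS values (-0.29). With all cells, spike-in scaling turned Eif2ak2 from 0.16 to -0.09.

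Among the GTPases, the guanylate-binding proteins and the Mx proteins differed in spread. Gbp2, an effector against intracellular pathogens, was present in 20 of 26 DiD+ and 23 of 27 DiD- cells without Cd74, and the median cell was lower in DiD+ (80.1 CPM) than in DiD- (89.1 CPM). The sums were 235 and 85.5 CPM, which gave a ratio of 1.45. Cell 68 stood at 3494 CPM, while the highest DiD- cell stood at 219 CPM, and without cell 68 the ratio was 0.59. Gbp3 had ratios of 1.80 and 1.17 with and without that cell, and was present in 11 of 26 and 8 of 27 cells.

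Mx1 and Mx2 encode antiviral GTPases that trap viral particles. Mx1 had 639 counts in DiD+ cells, of which 99.8% lay in Cd74 cells and 524 in cell 37. Its log2 ratio of 2.02 changed to -0.40 without them, when 1 count was left in DiD+ and 39 in DiD- cells. Mx2 was at least 92.4-fold higher, with 339 counts in DiD+ and 0 in DiD- cells. It was found without the Cd74 cells in cells 76 and 22 and had a ratio of 1.92, with 66.6% of its counts in cell 76.

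The membrane proteins that block virus entry or release were broad, and both had ratios below 1. Ifitm3, which stops viral fusion, was present in 32 of 32 DiD+ and 28 of 28 DiD- cells. It ran from 312 through a median of 1111 to 8051 CPM in DiD+ and from 522 through 1089 to 2831 CPM in DiD- cells, so the medians lay close and the groups overlapped. Its ratio was 0.56, and 0.60 without the Cd74 cells. Its estimated counts were not whole in 53 cells, as occurs where reads are divided between genes. Bst2, which encodes tetherin, had a highest cell of 1287 CPM in DiD+ and 279 CPM in DiD-, was present in all 60 cells, and had medians of 66.92 and 64.95 CPM. It had ratios of 0.63 and 0.73, and spike-in scaling of all cells gave -0.01. Per kilobase of exon, Ifitm3 was the most abundant member, at 2349 CPM per kb in DiD+ cells, followed by Bst2 at 135 CPM per kb and Ifi35 at 103 CPM per kb.

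Parp9, Parp14 and Dtx3l were at least 2-fold higher in each of the 3 sets of cells. PARP9 and DTX3L form a complex that modifies proteins near sites of DNA damage and enhances interferon signaling, and PARP14 is a related ADP-ribosyltransferase. Parp9 was present in 16 of 26 DiD+ and 10 of 27 DiD- cells without Cd74, with median cells of 25.4 and 0 CPM, and 9 DiD+ cells lay above every DiD- cell, the most of any member. Its sums were 51.3 CPM (50.1 to 52.4) and 14.01 CPM (13.3 to 14.7), and its log2 ratios were 1.80, 1.95 without the Cd74 cells and 1.72 without cell 68 as well. Dtx3l, next to Parp9 on chromosome 16, was present in 12 of 26 (46.2%, 26.6 to 66.6) and 3 of 27 cells (11.1%, 2.35 to 29.2). Its ratios in the same 3 sets were 2.66, 2.79 and 2.41. For Parp14 they were 2.23, 2.13 and 1.29, with 48.3% of the counts without Cd74 in cell 68.

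The other induced genes ranged from widespread to nearly single-cell expression. Xaf1, a gene that promotes cell death, was present in 24 of 26 DiD+ (92.3%, 74.9 to 99.1) and 19 of 27 DiD- cells (70.4%, 49.8 to 86.2). Its median cells were 35.9 and 12.6 CPM without Cd74, and its ratios were 1.72, 1.76 and 1.33. Ifi35 was present in 25 of 26 and 27 of 27 cells, with medians of 137 and 84.9 CPM and ratios of 0.85 and, without cell 68, 0.40. Rtp4, whose ratios were 1.81, 1.48 and 1.02, was present in 14 of 26 and 11 of 27 cells.

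Ifi44 stood at the other end of that range. With 2060 counts in DiD+ and 0 in DiD- cells it was at least 562-fold higher, but 98.3% of these were in cell 68, and its log2 ratio went from 4.21 to 0.28 without that cell. Ifi27l2a behaved in a similar way, since cell 68 and the Cd74 cells held 44.4% and 49.6% of its DiD+ counts and its ratio without both was -0.28. Trim30a, a regulator of inflammatory signaling, was at least 264-fold higher, with 970 counts in DiD+ and 0 in DiD- cells. The Cd74 cells held 54.0% of these and cell 67 held all the rest.

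Whether a few cells carried the whole set was then asked directly. Over the DiD+ cells, the 3 cells with the most member counts (cells 68, 22 and 21) held 36.9% of the 478112 counts on the members and 9.81% of all counts on mouse genes. With spike-in scaling this share of the 3 leading cells was 23.5%. Cell 68 alone held 19.4% of the member counts and 2.52% of the depth. Ifitm3 gave 232637 of the 478112 counts, and with it set aside the share of the 3 leading cells was 43.8%. In DiD- cells the corresponding 3 cells (89, 45 and 26) held 19.4% of the member counts and 11.8% of the depth.

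Gene by gene, cell 68 was the highest holder of DiD+ counts for 20 of the 37 members, beside 4.03% of the 12032 genes with at least 1 CPM in DiD+ cells. Cell 21 led for 7 members and cell 22 for 2, and 8 further cells led for 1 each. The leading cell held at least 50% of the DiD+ counts for 9 of the 37, beside 9.96% of all genes. The median share of the leading cell was 26.7% for the members and 15.2% for all genes. With the Cd74 cells set aside, 34 members kept at least 1 CPM in DiD+ cells. Cell 68 led for 23 of these 34 (5.05% of all genes), the leading cell held at least 50% for 10 of them (9.92%), and the median share was 30.4%, beside 16.9%. Among the 53 cells without Cd74 of both groups, cell 68 had the highest CPM for 24 members.

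**Figure D3:**
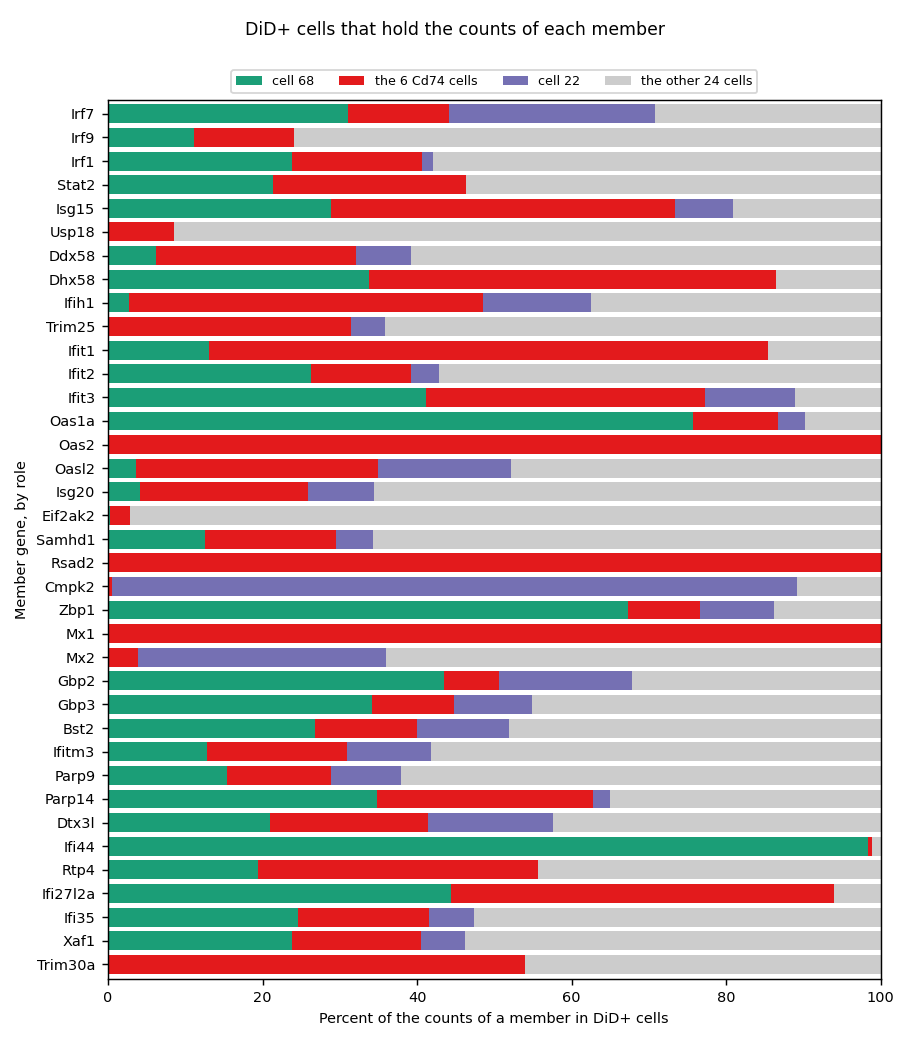
Percent of the DiD+ counts of each member (rows) held by cell 68, by the 6 Cd74 cells together, by cell 22 and by the other 24 cells (stacked bars from 0 to 100). Ifi44, Oas1a and Zbp1 lie mostly in cell 68, Oas2, Rsad2 and Mx1 almost wholly in Cd74 cells, Cmpk2 in cell 22, and Usp18, Eif2ak2, Irf9 and Samhd1 mostly in the other 24 cells.

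Cell 68 also stood apart in other measures. It had the largest spike-in share of the 60 cells (6.53%), the fewest detected genes (6024) and 330 CPM on the epithelial markers, with 1215 counts of Krt8 and 0 of Krt18. Its 13 macrophage markers were all at 0, and it held 0 counts of Cd74. Of the 11 mesenchymal stromal markers it had 5 present. Their sum was 718 CPM, beside a median of 228 CPM and a maximum of 3887 CPM among DiD+ cells. Its 317 counts of the luciferase transgene and 169 of mApple lay within the range of other cells. The part of these features in its interferon counts was not tested. The plot of the ratios shows each member without this cell.

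Leaving out cell 68 in addition to the Cd74 cells left 18 of the 37 members at least 2-fold higher in DiD+ cells, beside 9.94% of all genes (5.64% were at least 2-fold lower). The median log2 ratio was 1.00 over the 37 and 1.05 over the 34 that reached 1 CPM. Leaving out cell 68 alone left 24 members at least 2-fold higher and 0 lower, beside 11.8% and 4.81% of all genes. The 18 without cell 68 and the Cd74 cells were Irf7, Stat2, Isg15, Usp18, Ddx58, Trim25, Ifit1, Ifit3, Samhd1, Zbp1, Mx2, Gbp3, Parp9, Parp14, Dtx3l, Rtp4, Xaf1 and Trim30a. Of these, 4 (Ifit3, Zbp1, Mx2 and Trim30a) reached 1 CPM in DiD+ cells alone. The remaining counts of Trim30a lay in cell 67 only and those of Mx2 in cells 76 and 22. Removing the highest cells of both groups by their mean log2(CPM + 1) over the members gave 18 members with 1 cell removed from each group, 19 with 3 removed (cells 68, 83 and 22 against cells 45, 73 and 71) and 15 with 5 or 6 removed. The medians were 1.06, 1.13, 0.84 and 0.98 over the 34, 34, 32 and 31 members that reached 1 CPM. The share of all genes at least 2-fold higher in those sets was 10.2%, 10.9%, 10.7% and 11.02%.

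The number of members present in a cell gave a count that does not depend on how high the leading cell rose. It ran from 7 through a median of 16.5 to 28 in DiD+ cells and from 7 through 12.5 to 20 in DiD- cells. At least 19 of the 37 members were present in 12 of 32 DiD+ cells (37.5%, 21.1 to 56.3) and in 1 of 28 DiD- cells, which was cell 84, the DiD- cell with Cd74. Without the Cd74 cells, 9 of 26 DiD+ cells (34.6%, 17.2 to 55.7) and 0 of 27 DiD- cells, which allows a share of up to 11.1% by the limit of 3 cells and 12.8% by the exact interval, reached 19 members. The 9 were cells 17, 22, 25, 68, 75, 76, 80, 83 and 87. Just below the cut of 19, DiD- cells 45, 46, 73, 78 and 86 held 18 members, as did DiD+ cells 43 and 64. The 0 among DiD- cells therefore depended on the cut. At 15 members the groups were closer, with 15 of 26 and 9 of 27 cells. After each cell was thinned at random to 2200000 counts, 8 of 26 and 0 of 27 cells reached 19 members.

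**Figure D4:**
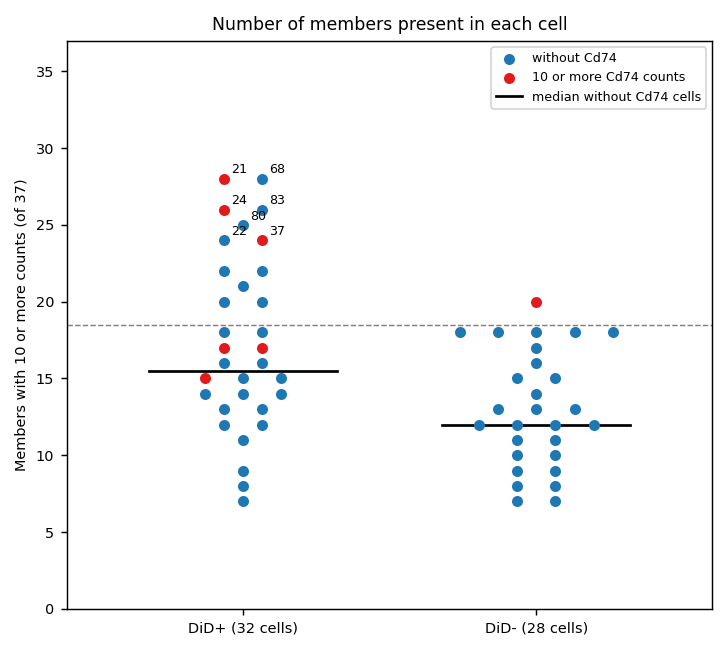
Number of the 37 members at 10 or more counts in each cell (points), by DiD group, with cells that held 10 or more Cd74 counts in red, the median of the other cells as a bar (15.5 in DiD+ and 12 in DiD-) and a dashed line under 19 members. Cells 21 and 68 lead with 28 members, and every DiD- cell without Cd74 lies at or below 18.

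The 9 member-rich DiD+ cells without Cd74 carried few signs of blood cells. They had 0 or 1 of the 13 macrophage or monocyte markers, 0 or 1 of 4 class II genes, 0 of 9 neutrophil, 0 of 6 plasmacytoid dendritic, 0 of 6 T or NK and 0 of 6 erythroid markers, 0 or 1 of 5 B or plasma, 0 to 2 of 5 megakaryocyte or platelet and 0 or 1 of 5 endothelial markers. Of 11 mesenchymal stromal markers they had 3 to 6 and of the 6 epithelial markers 1 or 2, against 1 to 7 and 1 or 2 in the other 44 cells without Cd74. The 7 Cd74 cells had 1 to 3 class II genes, 0 to 6 erythroid, 0 to 5 neutrophil, 0 or 1 B or plasma, 0 to 2 megakaryocyte or platelet, 0 or 1 endothelial, 2 to 4 mesenchymal stromal and 2 epithelial markers, and 0 of the plasmacytoid dendritic and T or NK lists. The 9 cells held between 3209508 and 5961682 counts. These 9 cells made up 34.4% of the DiD+ depth without Cd74. They held over 50% of the DiD+ counts for 31 of the 34 members with at least 1 CPM there. Because the cells were picked by their members, this follows in part from the choice, and the share over all genes was not computed.

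Proliferation genes were lower in the member-rich cells than in the rest by their medians. Summed G2/M genes had a median of 383 CPM in the 9 cells, 1155 CPM in the other 17 DiD+ cells and 2596 CPM in the 27 DiD- cells, with ranges from 117 to 4198, from 43.2 to 18486 and from 127 to 14387 CPM that overlapped. For the S phase genes the medians were 1254, 1746 and 3929 CPM. The epithelial sum had medians of 2270, 1411 and 5109 CPM in the same order, so within DiD+ cells it was higher in the member-rich cells. Across the 53 cells without Cd74, the mean log2(CPM + 1) over the members had a Spearman rho of -0.35 with the G2/M sum, -0.29 with the S phase sum, -0.46 with the epithelial sum, -0.04 with the macrophage sum and -0.20 with the total count. These values describe 53 cells from pooled mice that share the scaling to CPM, and the epithelial and cell cycle sums also differ between the groups.

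Pairs of member genes were correlated within each group, on lists of members that differ between the groups. Among the 26 DiD+ cells without Cd74, 28 members were present in at least 5 cells, and their 378 pairs had a median rho of 0.30, with 345 pairs above 0. In the 27 DiD- cells, 20 members formed 190 pairs with a median of 0.08 and 123 above 0. The closest pairs in DiD+ cells were Isg15 with Xaf1, Ifit3 with Zbp1, and Ifitm3 with Xaf1. The pairs share cells and depth, the lists of members differ between the groups, and the values are descriptive. The same values for pairs of genes outside the set were not computed.

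The ligands themselves were hardly detected. Of 21 interferon genes, 19 had 0 counts in all 60 cells (Ifnb1, Ifna1, Ifna2, Ifna4, Ifna5, Ifna6, Ifna7, Ifna9, Ifna11, Ifna12, Ifna14, Ifna15, Ifna16, Ifnab, Ifne, Ifnk, Ifng, Ifnl2 and Ifnl3), which at these depths allows up to 0.0205 CPM in DiD+ and 0.0251 CPM in DiD- sums. Ifna13 had 11 counts, all in cell 42, and Ifnz had 148 counts, of which cell 41 held 145. Both were DiD+ cells without Cd74 and neither was among the 9 member-rich cells.

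The receptor chains and their kinases were expressed in both groups, with small ratios for most. Of 9 such genes, 2 were at least 2-fold higher with all cells and 1 without the Cd74 cells, and 0 were lower, beside 12.1% and 10.4% of all genes at least 2-fold higher, so that these counts lay near the background. Tyk2, a kinase of the type I receptor, had 5655 counts in DiD+ and 1434 in DiD- cells, with ratios of 1.61 and, without the Cd74 cells, 1.82 (40.7 against 10.8 CPM). Ifnar2, a chain of that receptor, was at 69.2 and 27.5 CPM, with ratios of 1.30 and 0.87. Its estimated counts were not whole in 43 cells and those of Il10rb in 45. The remaining ratios without the Cd74 cells were 0.11 for Ifnar1, 0.29 for Ifngr1, 0.57 for Ifngr2, 0.55 for Il10rb, -0.16 for Jak1 and 0.01 for Jak2. Ifnlr1, the specific chain of the type III receptor, had 0 counts in all cells.

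Among 18 matched transducers and regulators, 3 were at least 2-fold higher and 2 lower without the Cd74 cells, and 6 were higher with all cells, beside the same shares of all genes. Tlr3, the endosomal sensor of double-stranded RNA, had ratios of 1.24 and 1.44, and Ptpn6, a phosphatase that dampens signaling in blood cells, of 2.83 and 3.30. The 2 lower genes, Irf5 and Irf8, were chosen for mention after their values were seen: their ratios were 0.30 and 2.31 with all cells and -1.96 and -1.31 without the Cd74 cells. Irf8 is a factor of macrophages and dendritic cells.

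A further list of 55 induced genes outside the 37 gave 24 at least 2-fold higher with all cells and 21 without the Cd74 cells. In both sets 0 were lower, and without the Cd74 cells the median log2 ratio was 0.82 over the 51 with at least 1 CPM. Over all genes, 12.1% and 10.4% were at least 2-fold higher in these 2 sets, and 4.86% and 5.71% lower. A count without cell 68 was not made for this list. The immunity-related GTPases were among the highest. Iigp1 was at 61.9 CPM in the DiD+ sum against 2.16 CPM, and its ratio without the Cd74 cells was 4.65. Igtp had 3.32, Irgm2 2.96 and Irgm1 1.89 in the same set, and cell 68 held 66.04%, 74.6%, 44.9% and 38.3% of the DiD+ counts of Iigp1, Igtp, Irgm2 and Irgm1.

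Of the guanylate-binding proteins beyond the members, Gbp4 and Gbp6 lay mostly in cell 68, whereas Gbp7 had 4242 DiD+ counts, led by cell 22, of which 564 lay in cell 68. Gbp4 was at least 561-fold higher, with 2056 counts in DiD+ and 0 in DiD- cells, and Gbp6 had 3222 and 4 counts, with 76.5% and 76.97% of the DiD+ counts in cell 68. The immunoproteasome and peptide transport genes Psmb8, Psmb9 and Tap1, which prepare peptides for class I molecules, had ratios of 1.63, 1.65 and 1.83 without the Cd74 cells, and cell 68 held 23.1%, 30.4% and 30.1% of their DiD+ counts. The chemokine Cxcl10 had a ratio of 2.38 with 66.7% in cell 68. Ccl5, a chemokine with 9549 counts in DiD+ and 0 in DiD- cells, at least 2604-fold higher, had 86.8% of them in cell 22. The other ratios of named genes of that list were those of Phf11b (2.48), Phf11d (1.90), Ifi203 (1.45), Trim21 (1.14), Lgals9 (1.13) and Adar (1.09), the enzyme that edits double-stranded RNA.

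Near copies of the members can share reads with them. Of 18 copies, 7 reached 1 CPM without the Cd74 cells, of which 4 were at least 2-fold higher and 1 (Trim30d, named after its value was seen) lower. Over all genes, 10.4% were at least 2-fold higher and 5.71% lower. Ifit3b was at 15.5 and 0.66 CPM, a ratio of 3.31, with 82.7% of the DiD+ counts in cell 68. Oas1g was at least 534-fold higher, with 1958 counts in DiD+ and 0 in DiD- cells and 85.04% in that cell. The estimated counts of Ifit3 and Oas1a were not whole in 4 and 2 cells. The share of their reads that was divided was not measured.

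Genes outside the set that most resembled it were found by rank correlation of their CPM with the mean log2(CPM + 1) over the members, across the 53 cells without Cd74 and among 10120 genes. The 10 closest were Xdh (rho 0.66), Cp (0.63), Trim14 (0.63), A930005H10Rik (0.62), F11r (0.61), Hist2h2aa2 (0.60), Lgals9 (0.60), Igtp (0.58), Azin2 (0.57) and Lamp2 (0.56). The top 5% of the genes ranked had a rho above 0.31. Xdh encodes xanthine dehydrogenase and Cp the copper carrier ceruloplasmin, which were at 130 and 923 CPM in DiD+ and at 67.7 and 427 CPM in DiD- cells, both without Cd74.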

How the data were processed

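Single PyMT-Bo1 cells were profiled by full-length cDNA sequencing with ERCC spike-ins. Per the submitters' processing notes and the methods, reads were aligned with STAR to GRCm38/mm10 and quantified with RSEM (versions not given in the sources used here). The authors deposited estimated counts per gene, unnormalized, for 47729 mouse genes, 92 spike-ins and 4 transgenes. A normalized signal table deposited by the authors, made with BASiCS, served as an alternative scaling only. All 60 columns were matched to cells by label and 0 were left unused. Of the values, 96.6% were exactly whole (tolerance 0), and all were rounded. Spike-ins and transgenes stayed out of totals. The instrument and read length differ between the labels and the methods.

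Counts were summed by group, scaled to CPM, and compared on the log2 scale with a pseudocount of 1 CPM. Correlations are Spearman's. A count of 0 was limited at 3 counts over the group. Gene positions and exon lengths are from the GENCODE annotation of GRCm38. Near-identical genes and genes that overlap can share reads. No doublet caller was run and no cell was renamed.

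The members and lists (interferon ligands, receptors and kinases, transducers and regulators, other induced genes, near copies, S and G2/M phase genes, and markers of macrophages, class II presentation, neutrophils, plasmacytoid dendritic, B, T or NK, erythroid, megakaryocyte, endothelial, stromal and epithelial cells) were chosen with earlier results of these data known. Named were all members, all ligands, receptors and kinases, other listed genes with at least 10 CPM and a 2-fold ratio without the Cd74 cells, the 10 genes most like the members, and leading cells. One name of the transducer list and 1 erythroid marker found no match. Python 3.11.15 (numpy 2.4.6, pandas 2.3.3, scipy 1.17.1, matplotlib 3.10.9) was used. Scaling factors for 2 alternatives came from DESeq2 1.42.0 and edgeR 4.0.16 in R 4.3.3, with no test fitted. Sums and ratios were also tested on simulated data. Some results of the lists are not reported here.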

Additional observations from a re-analysis of the deposited data

How the results depend on the processing

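Differences between DiD+ and DiD- cells rest on 1 pool per group, so the alternatives below change the summary and not the number of replicates. No paired analysis was possible because the replicate numbers only follow accession order and no test was run. With all cells, 29 members were at least 2-fold higher. This count was 24 to 29 when each cell was left out in turn, 20 with spike-in scaling and 19 with a pseudocount of 10 CPM. The median log2 ratio of 1.72 ran from 1.42 (without cell 68) to 1.82 (without cell 73), and was 1.83 with mean CPM over cells, 1.08 with spike-in scaling, 1.86 with a pseudocount of 0.1 CPM and 1.01 with 10 CPM. Without the Cd74 cells, the count of 24 ran from 18 (without cell 68) to 25 and was 14 with spike-in scaling. The median of 1.48 ran from 1.05 (without cell 68) to 1.78 (without cell 71), and was 1.58 with mean CPM, 0.84 with spike-in scaling, 1.01 with a pseudocount of 10 CPM and 1.62 with a minimum of 10 CPM. Spike-in scaling moved the median of all genes to -0.34 with all cells and to -0.24 without the Cd74 cells. Relative to that shift, 25 and 21 members were at least 2-fold higher, with medians of 1.41 and 1.08. The other scalings (TMM, median of ratios, the BASiCS values) and other Cd74 limits kept both counts within 1.5 times.

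Some alternatives were chosen after the data were seen. Without the Cd74 cells and cell 68 the median was 1.05, and without the 3 highest cells of each group it was 1.13. Dhx58 changed from 1.22 to -0.26 and -0.27 in these 2 sets, and Ifi27l2a to -0.28 without cell 68. Over the leave-one-out sets without Cd74 cells these ratios ran from -0.26 to 2.12 and from -0.28 to 3.37. With all cells, that of Rsad2 ran from -0.056 (without cell 30) to 3.11. The share of member counts in the 3 leading DiD+ cells, 36.9%, ran from 26.7% (without cell 68) to 38.4%. It was 37.3% from CPM, 23.5% with spike-in scaling, 41.1% without the Cd74 cells and 43.8% without Ifitm3. The median share of the leading cell, 26.7%, ran from 21.8% to 29.2%, and was 31.3% from CPM, 20.5% with spike-in scaling and 30.4% without the Cd74 cells. The 12 DiD+ cells with 19 members became 5 at a minimum of 100 counts and 21 at 15 members. For DiD- cells, 1 became 4 at a minimum of 1 count, 10 at 15 members, and 0 at 100 counts, after thinning or without the Cd74 cell. The cause of these changes was not tested.

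The sums cannot separate mice, and a ratio against 1 to 4 counts, as for Ifit3 and Gbp6, has a wide counting error.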
